A study of Mus musculus with 5 samples.

Results

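The 10 transcripts described here encode heat shock chaperones: Hspa1a, Hspa1b, Hspa8, Hsp90aa1, Hsp90ab1, Hspb1, Hsph1, Dnaja1, Dnajb1 and Hspe1. They were chosen by gene symbol from the 23284 symbols of each count table, and all 10 were present in the tables and passed the filter on low counts, which left 8291 genes for testing. RNA came from primary acinar cells, which make the digestive enzymes of the pancreas, of 8-week-old animals of the C57BL/6 strain. The knockout group held 3 libraries of genotype Arid1afl/fl;p48-Cre, where both copies of Arid1a, which encodes a subunit of the SWI/SNF chromatin remodelling complex, are floxed and deleted by Cre. The control group held 2 libraries from p48-Cre mice, so that both groups carried the Cre driver, which is active from the embryonic pancreas onward and not only in acinar cells. The labels give no treatment that differed between the groups. The comparison asks which acinar transcripts differ when Arid1a is lost. The labels do not say whether each library came from a separate animal, and the spread that p-values rest on here is that between libraries, possibly technical.

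Heat shock chaperones keep other proteins folded. Hsp70 proteins bind exposed hydrophobic stretches of a client and release them in a cycle driven by ATP, Hsp40 (DnaJ) proteins deliver the client and start the cycle, Hsp110 proteins exchange the nucleotide, and Hsp90 proteins take over clients that are close to their final fold. Some of these genes are transcribed in every cell, and others are switched on within minutes of heat or proteotoxic stress, when the factor Hsf1 forms trimers and binds heat shock elements in their promoters. Hspa1a, Hspa1b, Hspb1, Hsph1, Dnajb1 and Hsp90aa1 were grouped as inducible, and Hspa8, Hsp90ab1, Dnaja1 and Hspe1 as constitutive. The split is one of degree, since several constitutive members also respond to heat. Hspe1 is the mitochondrial cochaperonin Hsp10, so the set is not purely cytosolic. Isolation of acinar cells involves mincing and enzymatic digestion, here for 20 min and again for 10 min, and recovery in serum-containing medium for 1 h before RNA was extracted.

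A heat shock element is made of GAA blocks in alternating orientation, and 7 of the 10 members have entries in the RefSeq promoter table (build GRCm38.p6). Their windows of 250 bases before the transcript start were searched for a pair of blocks, GAANNTTC or TTCNNGAA, and for a run of 3 blocks, GAANNTTCNNGAA or TTCNNGAANNTTC. Each pair reads the same on the other strand, the runs of 3 blocks are each other's reverse complement, and every run of 3 blocks contains 2 overlapping pairs. A pair was found in 12.8% of all 32851 promoter windows of this length and in at least 1 window of 6 of the 7 members. These matches fell in 7 of the members' 11 windows, since some members have several. Windows of 1 gene are not independent. The 2 windows of Hsph1 overlap and hold the same pair, and the later windows of Dnaja1 also overlap. Neither window of Dnajb1 held a pair, and 1 of them lies wholly downstream of the transcript start of the other. Counted per window like the background, 1 of the 3 windows of Dnaja1 held a pair. A run of 3 blocks was found in 0.466% of all windows and in 1 member, Hspe1. The windows below are shown because they place the adjacent Hsp70 genes, whose reads are hard to separate, beside 3 members with differing promoters. Letters are 5′ to 3′ toward the transcript start, and capitals mark the matched blocks.
Hspa1a, chr17:34972157-34972406, minus strand: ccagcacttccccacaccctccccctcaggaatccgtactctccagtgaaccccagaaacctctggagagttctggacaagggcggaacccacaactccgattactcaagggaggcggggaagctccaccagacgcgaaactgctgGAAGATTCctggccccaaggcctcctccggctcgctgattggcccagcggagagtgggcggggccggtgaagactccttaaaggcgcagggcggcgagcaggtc
Hspa1b, chr17:34959239-34959488, minus strand: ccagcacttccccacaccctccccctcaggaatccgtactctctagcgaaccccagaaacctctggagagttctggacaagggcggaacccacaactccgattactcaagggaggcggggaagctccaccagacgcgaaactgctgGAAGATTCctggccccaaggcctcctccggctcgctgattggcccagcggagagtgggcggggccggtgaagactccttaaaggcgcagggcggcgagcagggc
Hspb1, chr5:135887669-135887918, plus strand: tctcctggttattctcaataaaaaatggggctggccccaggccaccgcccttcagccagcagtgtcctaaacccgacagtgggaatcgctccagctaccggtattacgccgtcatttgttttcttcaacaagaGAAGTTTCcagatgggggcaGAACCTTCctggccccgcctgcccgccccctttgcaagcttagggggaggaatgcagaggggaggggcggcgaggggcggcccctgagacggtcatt
Hsph1, chr5:149636337-149636586, minus strand: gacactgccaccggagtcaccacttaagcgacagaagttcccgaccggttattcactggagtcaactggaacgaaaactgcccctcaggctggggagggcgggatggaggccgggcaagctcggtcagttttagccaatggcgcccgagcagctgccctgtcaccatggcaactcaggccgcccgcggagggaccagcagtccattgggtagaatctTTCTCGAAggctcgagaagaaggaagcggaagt
Hspe1, chr1:55087898-55088147, plus strand: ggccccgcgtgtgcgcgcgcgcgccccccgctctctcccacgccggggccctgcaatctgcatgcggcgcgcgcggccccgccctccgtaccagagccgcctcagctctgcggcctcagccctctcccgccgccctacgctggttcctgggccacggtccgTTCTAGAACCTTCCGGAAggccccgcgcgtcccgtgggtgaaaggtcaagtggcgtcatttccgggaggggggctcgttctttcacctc
The windows of Hspa1a and Hspa1b were identical at 247 of 250 bases, and both have 1 pair beginning 104 bases before the start. Hspb1 has pairs that begin 117 and 97 bases before its start, and the longer element of Hspe1 begins 89 bases before. These matches describe letters in a window and not bound sites.

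The libraries differed greatly in depth. Without Rn45s, the ribosomal RNA precursor, and Lars2, the knockout libraries held 3155357 to 3568906 counts and the control libraries 67514 and 72006. Rn45s took 6.78% to 10.9% of the knockout counts and 72.6% and 82.2% of the control counts. Values are CPM, counts scaled to 1000000, on the total without Rn45s and Lars2, in which 1 count equals 0.28 to 0.317 CPM in a knockout library and 14.8 and 13.9 CPM in the control libraries. All 10 members together had 2778, 5096 and 641 counts in knockouts 1, 2 and 3 and 28 and 32 counts in controls 1 and 2. Depth and Rn45s content separated the libraries exactly as genotype did and cannot be told apart from it. Arid1a itself had 44, 121 and 42 counts in the knockout libraries and 0 and 3 in the control libraries. These are raw counts at very unlike depths, so they do not compare its level between the groups. Counts per gene, which do not separate the deleted part, cannot check the labels. The acinar marker list summed to 50.0% to 65.5% of knockout counts and 50.4% and 57.0% of control counts, with Amy2a5 at 0 in all 5 libraries. Within it, 2 of 15 tested genes were called lower in the knockouts and 0 higher, against 1.6% and 0.193% of all tested genes. The 2 were the enzymes Cela2a (log2 fold change -2.55 ± 0.48, adjusted p = 7.5e-05, edgeR) and Cel (-2.28 ± 0.54, adjusted p = 0.0055, edgeR). The median log2 fold change of the 15 was 0.04. Every knockout library lay above both controls for 3 of them and below both for 4, against 35.6% and 11.2% of tested genes. In bulk RNA, fewer cells of a type and less RNA per cell cannot be told apart.

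The inducible Hsp70 genes gave unlike values. Hspa1a, a stress-induced cytosolic Hsp70, stood at 43.4, 82.1 and 14.3 CPM in knockouts 1, 2 and 3 and at 0 and 97.2 CPM in controls 1 and 2. The control libraries enclosed the whole knockout range, with all 7 control counts in control 2, so that without control 2 the control value would be 0. Hspa1b, the adjacent gene for a nearly identical protein, stood at 73.5, 133 and 20.0 CPM in the knockouts and at 14.8 and 13.9 CPM in the controls, where each library held 1 count. Every knockout library lay above both controls, knockout 3 only by a small margin. The pooled ratio of knockout over control was 0.946 for Hspa1a (exact 95% interval 0.456 to 2.37, counting error only) and 5.36 for Hspa1b (1.48 to 44.4). Of the 50-base words in the Hspa1a transcript, 58.8% also occur in Hspa1b, so the split of reads between the pair is uncertain. Taken as a single count, both genes together stood at 117, 215 and 34.4 CPM in the knockouts and at 14.8 and 111 CPM in the controls, with a pooled ratio of 1.93 (1.01 to 4.23) and overlapping groups.

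Hspa8, the constitutive Hsc70 that also uncoats clathrin vesicles, stood at 126, 141 and 46.9 CPM in the knockouts and at 14.8 and 13.9 CPM in the controls. The groups did not overlap, and even knockout 3 was above both controls. The pooled ratio was 7.33 (2.02 to 60.6). The controls held 2 counts where 14.7 would have matched the pooled knockout share. Of its 50-base words, 74.8% recur in other annotated genes, among them Gm15459 (70.0%) and Gm8355 (46.0%), so its level relative to the other members is uncertain. Hsph1, an Hsp110 that exchanges nucleotide on Hsp70, shares none of its words. It stood at 35.8, 63.6 and 2.99 CPM in the knockouts and at 59.2 and 13.9 CPM in the controls. Knockout 3 was the lowest library and control 1 was close to the highest, which is knockout 2, and the pooled ratio was 0.970 (0.412 to 3.01).

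The Hsp40 genes were measured with few control counts. Dnajb1, the stress-induced partner of Hsp70, stood at 77.6, 159 and 14.3 CPM in the knockouts and at 14.8 and 13.9 CPM in the controls. Knockouts 1 and 2 were well above the controls, and knockout 3 lay between the control values. The pooled ratio was 5.96 (1.64 to 49.3), and 0.441% of its words recur elsewhere. Dnaja1, an Hsp40 that also assists protein import into mitochondria, stood at 22.8, 32.5 and 2.69 CPM in the knockouts and at 14.8 and 0 CPM in the controls. These groups overlapped, and a single control count left the pooled ratio of 2.73 with an interval of 0.484 to 108.

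Hsp90ab1, the constitutive cytosolic Hsp90, was the best measured member. It stood at 311, 595 and 47.2 CPM in the knockouts and at 296 and 278 CPM in the controls, where each library held 20 counts. The control libraries differed little, whereas knockout 2 was above both, knockout 1 close to them and knockout 3 far below. The pooled ratio of 1.13 (0.828 to 1.59) averages over these unlike libraries. Against the pooled controls alone, knockout 1 gave a ratio of 1.08 (0.791 to 1.53), knockout 2 of 2.08 (1.52 to 2.91) and knockout 3 of 0.165 (0.116 to 0.239). Hsp90aa1, the stress-induced isoform, stood at 30.1, 51.6 and 8.07 CPM in the knockouts and at 0 and 13.9 CPM in the controls. The groups overlapped at knockout 3, and 1 control count gave a ratio of 4.24 with an interval of 0.755 to 168. Of the words of Hsp90ab1, 4.49% recur in other genes, against 58.5% for Hsp90aa1.

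Hspb1, the small heat shock protein known in mouse as Hsp25, which holds unfolded clients and binds actin, had no count in either control, as did 33.5% of tested genes. It stood at 138, 147 and 26.6 CPM in the knockouts. The mean of 104 ± 67.1 CPM (SD, n = 3) was 4.83 times the floor of 21.5 CPM, which is 3 counts over both controls together. The exact interval of the pooled ratio began at 3.93. Against the pooled controls alone, the interval began at 5.19 for knockout 1 and 5.54 for knockout 2. For knockout 3, at 26.6 CPM little above the floor, it began at 0.986 and so holds 1. Of the words of Hspb1, 60.4% recur in other genes, chiefly Hsp25-ps1. Hspe1, which caps the mitochondrial chaperonin, had no control count either and stood at 22.8, 22.4 and 8.37 CPM in the knockouts. Its pooled knockout value of 17.9 CPM was under the control floor, and at this depth a higher level in the knockouts could not have been detected. Hspd1, the chaperonin that Hspe1 caps, named after its values were seen, likewise had no control count and stood at 14.9, 26.9 and 4.48 CPM in the knockouts.

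**Figure D1:**
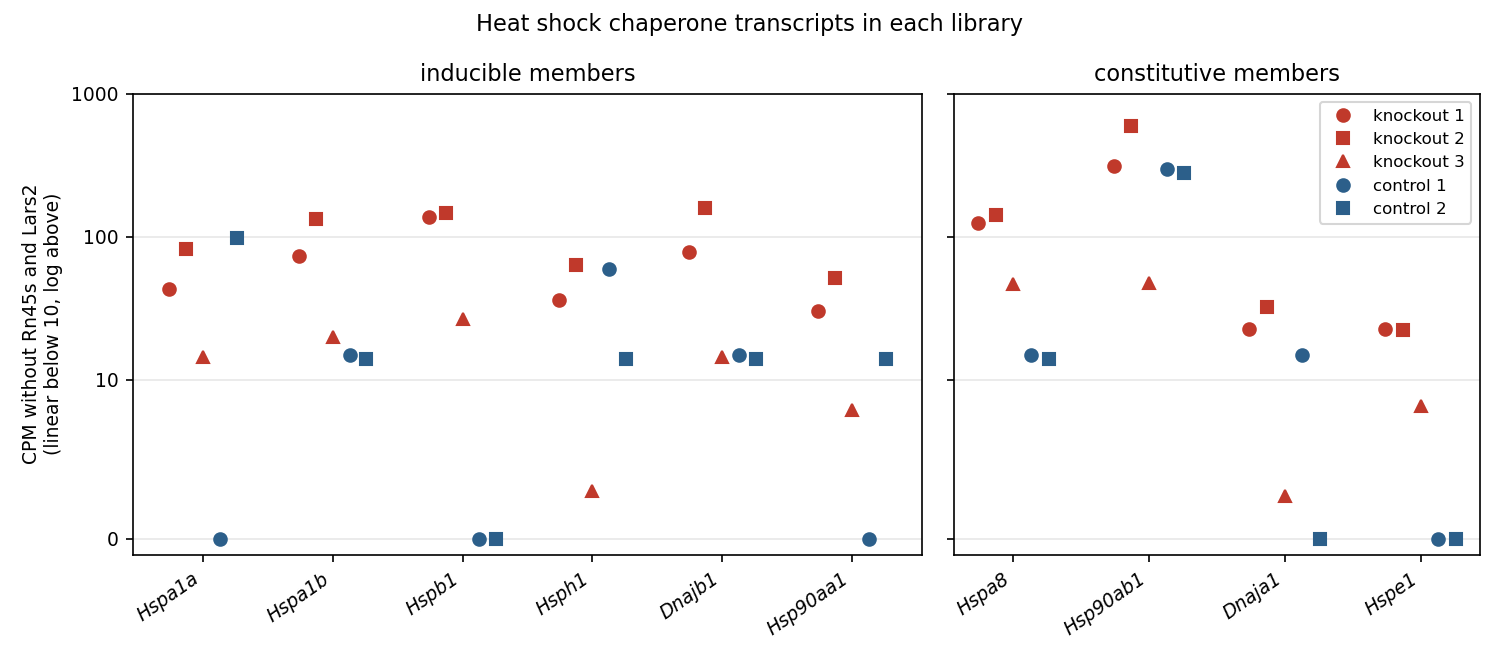
CPM of each member (vertical axis, linear below 10 CPM and logarithmic above) in the 3 knockout libraries (red) and the 2 control libraries (blue), with inducible members on the left and constitutive members on the right. Points are single libraries: knockout 3 is the lowest knockout library for every member, and Hsp90ab1 at 296 and 278 CPM is the highest member in both controls.

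None of the 10 members passed the test across all genes in either direction. The test was edgeR's quasi-likelihood test with Benjamini-Hochberg adjustment, in which 0.193% of the 8291 genes were called higher and 1.6% lower in the knockouts, 16 and 133 genes, against 147 and 71 with TMM scaling on the same counts. At an unadjusted p under 0.05, 1 member was higher (Hspb1), against 1.95% of all tested genes. Hspb1 had the smallest adjusted p, at 0.136 (edgeR), with a fitted log2 fold change that has no meaning as a size because the controls were at 0. Hspa8 had a log2 fold change of 2.86 ± 1.62 (SE) and an adjusted p of 0.456 (edgeR), with 3 of 3 knockout libraries above the controls. Hspa1b had 2.39 ± 1.69, and Dnajb1 2.54 ± 1.66, with adjusted p-values of 0.559 and 0.529 (edgeR). Hsp90ab1 had 0.15 ± 1.01 and an adjusted p of 0.946 (edgeR), and its value was -0.68 without knockout 2. Hspa1a and Hsph1 had -0.07 ± 1.43 and -0.09 ± 1.54, both below the median of all tested genes. TMM scaling moved that median to 1.93 and both genes with it, to 1.54 and 1.37, still below it. DESeq2 called 1 member higher (Hspb1, adjusted p = 0.0365), TMM scaling 2 (Hspb1, adjusted p = 0.0440, and Hspa8, adjusted p = 0.0498, edgeR) and limma-voom 0.

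Every knockout library was above both controls for 4 of the 10 members (Hspa1b, Hspb1, Hspa8 and Hspe1), against 35.6% of tested genes, so this count is close to that of all genes. The exact interval of the pooled ratio lay above 1 for Hspa1b, Hspb1, Dnajb1 and Hspa8, again 4 of 10, against 6.96% of tested genes, and below 1 for no member against 21.8%. This background is not one of equal abundance, since all 10 members were above the median tested gene of 9.93 CPM in the pooled knockouts, and a gene with few counts can hardly give an interval above 1. Where the controls held no count the floor was used in its place, and the median log2 ratio was 1.77 over the members, against -1.13 over all tested genes. That substitution sets these values: without it, the median fitted log2 fold change was 2.23 over the members, against 0.22 over all tested genes. By class, the median with the floor was 2.18 for the 6 inducible and 0.81 for the 4 constitutive members, whereas the median fitted value was 2.23 for the inducible and 2.14 for the constitutive members, so the gap between the classes appeared with the floor alone. In each class 1 member had no control count, where the fitted value is no measure of size.

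**Figure D2:**
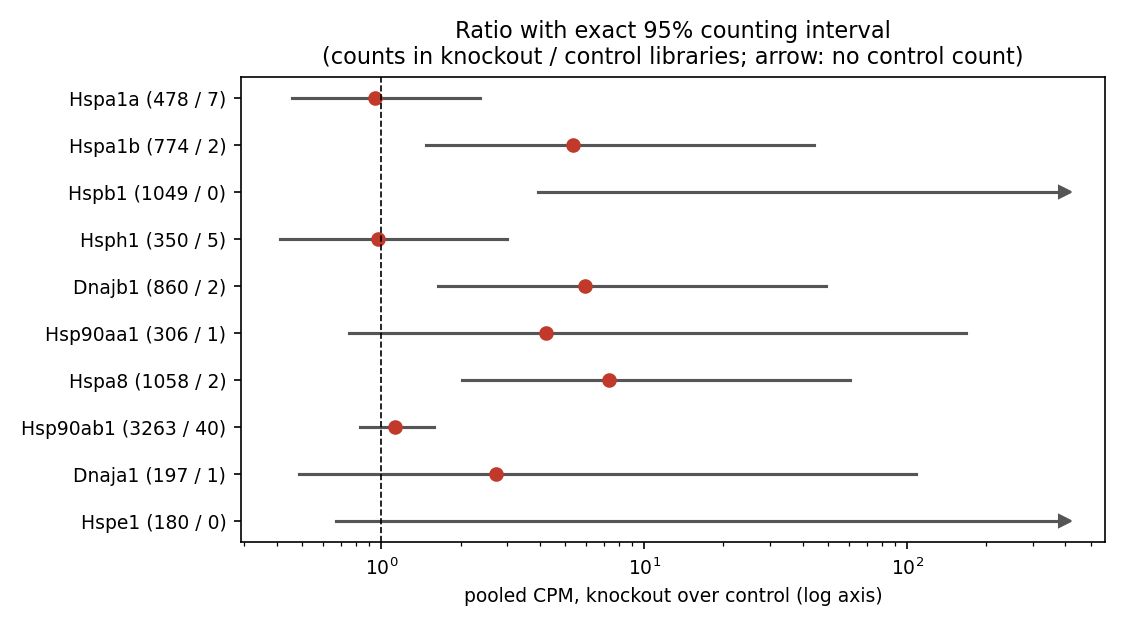
Pooled CPM of each member in the knockout libraries over that in the control libraries (horizontal logarithmic axis), with exact 95% intervals for counting error alone and the pooled counts of knockout and control libraries beside each name. The intervals of Hspa1b, Hspb1, Dnajb1 and Hspa8 lie above 1, while Hsp90ab1, with 40 control counts, has the narrowest interval, from 0.828 to 1.59.

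The outcome depended on which knockout library was set against the controls. In knockout 1 the interval lay above 1 for 4 members, against 6.15% of tested genes, and in knockout 2 for 6, against 13.8%. It lay below 1 for no member in either, against 24.1% of tested genes in knockout 1 and 16.2% in knockout 2. In knockout 3 it lay above 1 for no member, against 2.65% of tested genes, and below 1 for 3, against 31.2%. These 3 were Hspa1a, with a ratio of 0.286 (0.129 to 0.749), Hsph1, with 0.0834 (0.0260 to 0.311), and Hsp90ab1.

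The share of the inducible members among the counts of all 10 does not depend on scaling between libraries. It was 45.2%, 44.6% and 45.1% in knockouts 1, 2 and 3, and 21.4% and 34.4% in controls 1 and 2. The knockout libraries differed by less than 1 percentage point although their summed member level ranged from 192 to 1428 CPM, and both controls were lower. The exact 95% intervals of the controls were 8.3% to 41.0% and 18.6% to 53.2%, so that of control 2 holds the knockout values. The group means were 45.0% ± 0.357 (SD, n = 3) in the knockouts and 27.9% ± 9.15 (SD, n = 2) in the controls, a difference of 17.1 percentage points that was given no test because the members were chosen with earlier results known.

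This difference rested on 1 constitutive gene. Hsp90ab1 made up 35.3%, 41.7% and 24.6% of the member counts in the knockouts and 71.4% and 62.5% in the controls. Its exact intervals of 51.3% to 86.8% in control 1 and 43.7% to 78.9% in control 2 lay above those of all 3 knockout libraries, which reached at most 43.0%. Left out, the inducible share was 69.9%, 76.4% and 59.8% in the knockouts and 75.0% and 91.7% in the controls, with the sign of the difference turned to -14.6 percentage points, an alternative added after the data were seen. The controls then held only 8 and 12 member counts. Hspa8, also constitutive, stood in the opposite order to Hsp90ab1, at 14.3%, 9.91% and 24.5% of member counts in the knockouts and 3.57% and 3.12% in the controls. Each control share of Hspa8 was 1 count. Their exact intervals, 0.0904% to 18.3% and 0.0791% to 16.2%, hold the shares of knockouts 1 and 2. Shares of 1 total also move against each other, so the directions of Hspa8 and Hsp90ab1 are not independent. In these point values the constitutive class had no common direction.

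**Figure D3:**
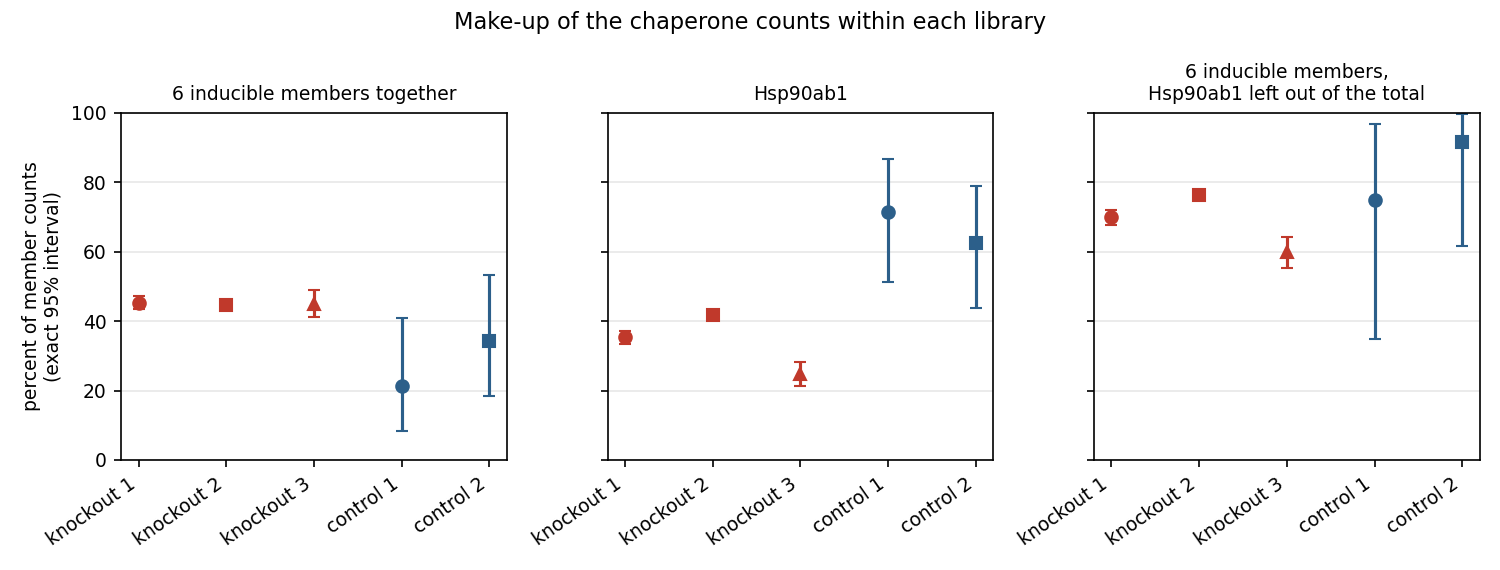
Percent of the member counts of each library (vertical axis, with exact 95% intervals) taken by the 6 inducible members, by Hsp90ab1, and by the inducible members when Hsp90ab1 is left out of the total. Knockout libraries are red and control libraries blue: the inducible share is 44.6% to 45.2% in the knockouts and lower in both controls, and without Hsp90ab1 it is 59.8% to 76.4% in the knockouts, against 75.0% and 91.7% in the controls.

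The knockout libraries, with 641 to 5096 member counts, allow the members to be compared among themselves. For 9 of the 10 members the order was knockout 2 above knockout 1 above knockout 3, an order that 78.2% of the 8283 genes with at least 30 knockout counts also had. The exception was Hspe1, whose first and second knockout libraries were nearly equal. Knockout 2 was at least 4-fold above knockout 3 for 8 members, all 6 inducible ones plus Hsp90ab1 and Dnaja1, against 52.8% of genes, so a wide gap between these libraries was common to most genes. The median ratio was 4.25 over all genes and 6.52 over the members. Hsph1 had the largest ratio of the members, 21.3 (exact 95% interval 11.4 to 45.0), followed by Hsp90ab1 at 12.6 (10.7 to 14.9), Dnaja1 at 12.1 (6.15 to 27.1) and Dnajb1 at 11.1 (8.24 to 15.2). Hspa8 at 3.01 (2.52 to 3.63) and Hspe1 at 2.68 (1.72 to 4.28) had the smallest. Inducible and constitutive members were mixed in this order, with coefficients of variation over the knockouts of 64.6% to 88.9% and 46.0% to 86.2%, against a median of 69.1% over all genes.

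**Figure D4:**
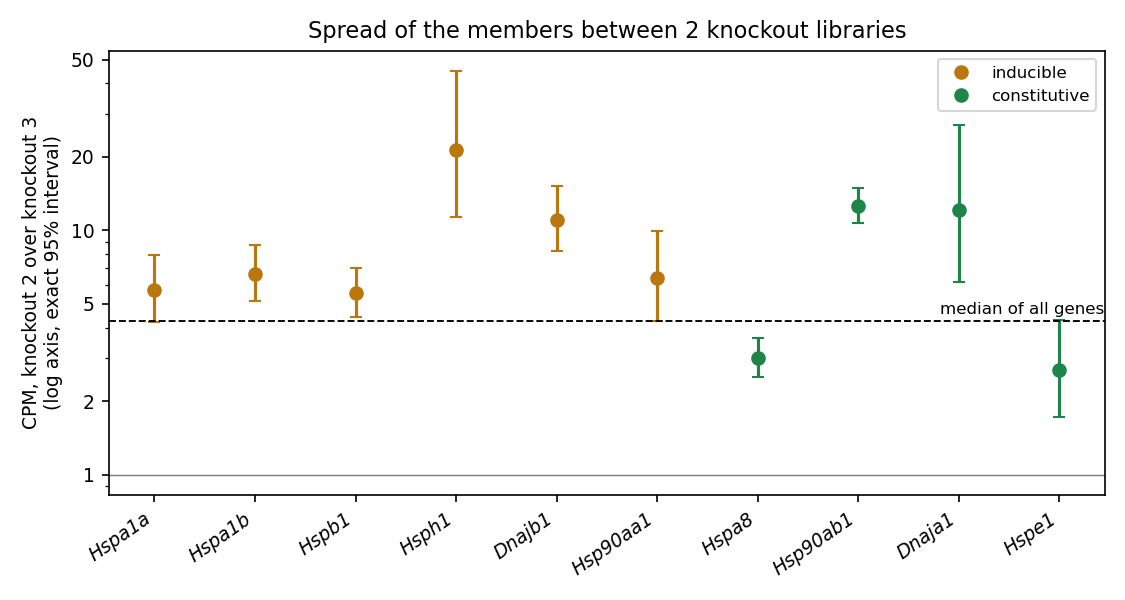
Ratio of CPM in knockout 2 over knockout 3 for each member (vertical logarithmic axis, exact 95% intervals for counting error), with inducible members in orange and constitutive members in green. The dashed line is the median of 4.25 over 8283 genes with at least 30 knockout counts, and only Hspa8 and Hspe1 lie under it.

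Levels between members can be compared only per transcript length. On the scale of CPM per kilobase of the longest RefSeq-matched transcript, mean levels in the knockouts were 126 ± 109 for Hsp90ab1, 115 ± 74.3 for Hspb1 and 43.7 ± 21.1 for Hspa8 (SD, n = 3). Dnajb1 at 27.9 ± 24.2, Hspa1b at 27.0 ± 20.2 and Hspe1 at 23.1 ± 10.6 followed. The lowest mean levels per kilobase were 15.7 ± 11.5 for Hspa1a, 9.12 ± 6.63 for Hsp90aa1, 8.98 ± 7.98 for Hsph1 and 3.44 ± 2.71 for Dnaja1. No member differed from its neighbour in this order by more than the larger of the SDs of the pair. These SDs hold the gap between libraries that the members share, so they do not measure differences within a library. Hspb1 was above Hspa8 in each knockout, at 153 against 52.4, 163 against 59.1 and 29.5 against 19.6. Hspb1 was above Hsp90ab1 in knockouts 1 (153 against 123) and 3 (29.5 against 18.7) but below it in knockout 2 (163 against 236). In the controls Hsp90ab1 averaged 114 CPM per kilobase and the next member, Hspa1a, 16.4.

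Related genes outside the set were as little called. Of all tested genes 0.193% were called higher and 1.6% lower, so 0 calls in lists of these sizes are near the share over all genes. Among 17 other heat-inducible genes 15 were tested and 0 were called in either direction. Fkbp4, an Hsp90 cochaperone, stood at 129, 192 and 75.0 CPM in the knockouts and at 148 and 111 CPM in the controls. Of 20 further Hsp70 and Hsp90 cochaperones 17 were tested and 0 called. Bag1, a nucleotide exchange factor, stood at 112, 201 and 155 CPM in the knockouts and at 88.9 and 167 CPM in the controls, and Cdc37, which brings kinases to Hsp90, at 74.5, 130 and 99.5 CPM in the knockouts and at 74.1 and 0 CPM in the controls. For both, knockout 3 was not the lowest knockout library, although it was for 15 of the 20 genes of this list and for all 10 members. Of the 8283 genes with at least 30 knockout counts, 78.2% had the order knockout 2, 1, 3, which places knockout 3 lowest.

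Of 15 other Hsp70, Hsp110 and Hsp40 genes 11 were tested and 0 called. Hspa4, another Hsp110, stood at 33.0, 73.4 and 4.48 CPM in the knockouts and at 14.8 and 41.7 CPM in the controls, and Dnaja2 at 29.2, 53.8 and 7.77 CPM in the knockouts and at 59.2 and 13.9 CPM in the controls. Knockout 3 was the lowest library for both. Of a list of chaperonin, prefoldin and mitochondrial chaperone genes, all 17 in the tables were tested and 0 called. Cct5, a subunit of the cytosolic chaperonin, stood at 164, 201 and 106 CPM in the knockouts and at 59.2 and 153 CPM in the controls. Cct4, another subunit, stood at 131, 166 and 63.4 CPM in the knockouts and at 0 and 208 CPM in the controls, which enclosed the knockout range. None of the 7 other small heat shock protein genes had enough counts to be tested. Cryaa, a lens crystallin, had 0, 1 and 0 counts in the knockouts and 1 and 5 in the controls, and Hspb6 had 8, 16 and 1 counts in the knockouts and 0 in both controls.

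Regulators of the response had no count in either control, as did 33.5% of tested genes. Hsf1, the main heat shock factor, had 22, 63 and 0 counts in the knockouts. These equal 6.97, 17.7 and 0 CPM, all under the control floor of 21.5 CPM, and the exact interval of the pooled ratio of Hsf1 began at 0.312. Hsbp1, which binds Hsf1, had 108, 175 and 94 counts in the knockouts, and the exact interval of its pooled ratio began at 1.41. The 3 tested genes of this list were not called. Endoplasmic reticulum chaperones, which serve the secretory pathway and answer to a different stress response, summed to 3219, 3708 and 4093 CPM in the knockouts and to 5095 and 4000 CPM in the controls, with 0 of 17 called. Pdia2, the pancreatic disulfide isomerase, stood at 1231, 999 and 2447 CPM in the knockouts and at 3007 and 2736 CPM in the controls, and P4hb, another disulfide isomerase, at 524, 617 and 617 CPM in the knockouts and at 918 and 208 CPM in the controls. In the sum of this list knockout 3 was the highest knockout library, whereas it was the lowest for the members. Pdia2 alone gave 2447 of the 4093 CPM in knockout 3. By gene, knockout 3 was the lowest knockout library for 8 of the 17 genes of this list.

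**Figure D5:**
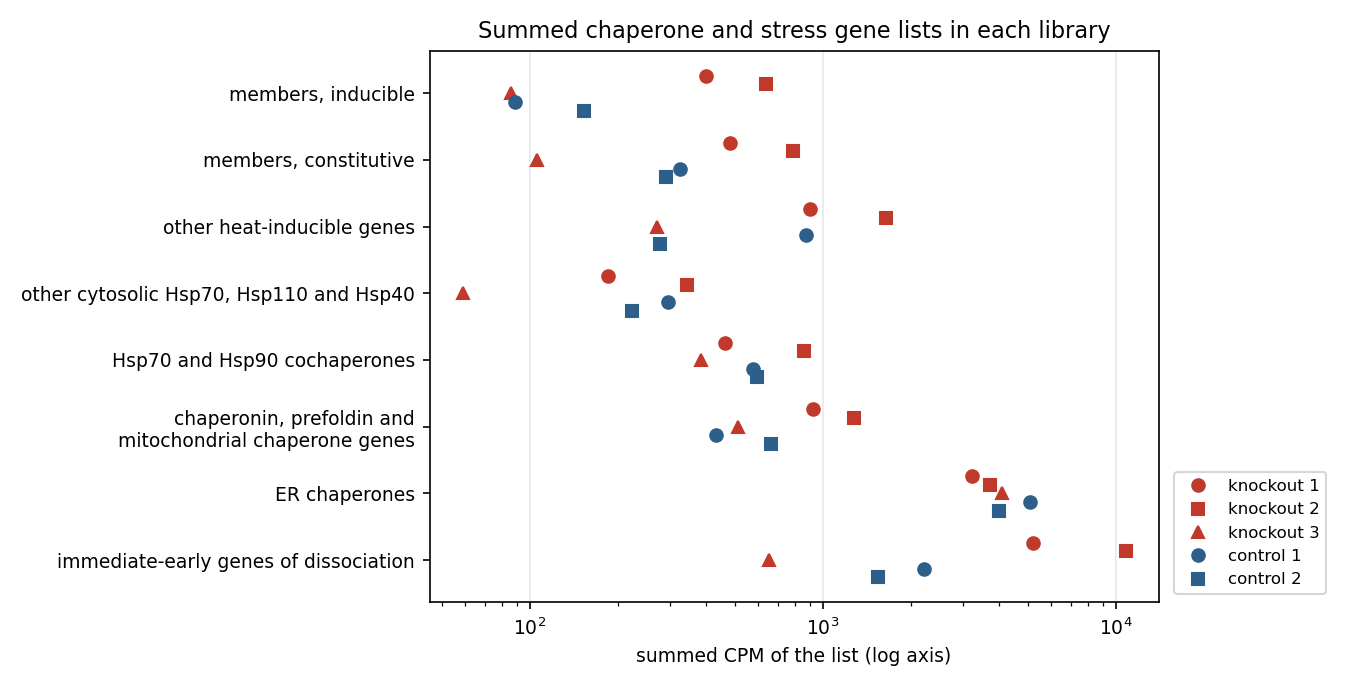
Summed CPM of the member classes and of related gene lists (horizontal logarithmic axis) in each knockout (red) and control (blue) library. Knockout 3 is below the other knockout libraries in every list except the endoplasmic reticulum chaperones, where it is at 4093 CPM. Of these, 2447 CPM are from Pdia2.

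Immediate-early genes, known to be switched on when tissue is dissociated, were in sum in the same order as the members among the knockouts. That order was common to 78.2% of the 8283 genes with at least 30 knockout counts. The list of 25 genes summed to 5191, 10776 and 654 CPM in knockouts 1, 2 and 3 and to 2207 and 1542 CPM in controls 1 and 2, so that knockout 3 was below both controls, as it was for Hsp90ab1. Egr1, a factor induced by growth and stress signals, was called higher (log2 fold change 5.97 ± 1.58, adjusted p = 0.0173, edgeR), the only 1 of 22 tested. Summed markers of other cells were uneven too. Endothelial markers were at 130, 166 and 28.4 CPM in the knockouts and at 0 in both controls for all 6 genes, and duct markers at 497, 1607 and 279 CPM in the knockouts and 800 and 708 CPM in the controls. Of the duct counts, 30 of 54 in control 1 and 28 of 51 in control 2 were Spp1, and 2 of the 8 genes had no control count. Leukocyte markers were at 95.4, 350 and 67.9 CPM in the knockouts and 163 and 181 CPM in the controls, and fibroblast and stellate markers at 62.4, 191 and 24.5 CPM in the knockouts and 267 and 306 CPM in the controls. The control sums of both lists rested on few counts, mostly of single genes. All 11 leukocyte counts of control 1 were Cd74, and 10 of the 13 of control 2 were Itgam. Of the fibroblast and stellate counts, 17 of 18 in control 1 were Vim and 12 of 22 in control 2 were Col1a1. Islet markers were at 173, 961 and 215 CPM in the knockouts and 104 and 708 CPM in the controls, and all 5 erythroid markers were at 0 in every library. Of the islet counts, 5 of 7 in control 1 and 37 of 51 in control 2 were Ins2, and 5 of the 8 genes had no control count. The part of these cells and of dissociation in the chaperone values was not tested.

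Profiles were compared with those of 300 other genes averaging 100 CPM or more. Those whose profile over the 5 libraries was most like the summed inducible members were Btg2, H3f3b, Gp2, Ncl and Xbp1. Likeness was the root mean square difference between centred log2(CPM + 10) profiles, which was 0.169 to 0.429 for these genes, against a median of 1.34. Btg2, an antiproliferative gene that is itself on the immediate-early list, stood at 359, 535 and 69.7 CPM in the knockouts and at 59.2 and 153 CPM in the controls. For the summed constitutive members the nearest were Perp, Pdia3, Cd24a, Serinc3 and Mcl1, at 0.259 to 0.474 against a median of 1.2. Perp, a desmosome-associated membrane protein, stood at 148, 185 and 16.4 CPM in the knockouts and at 104 and 97.2 CPM in the controls.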

How the data were processed

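The authors deposited whole-number read counts per gene symbol, 1 table per library and no normalization. The build was mm9, and the tools named were HTSeq 0.9.1, TopHat2 2.1.1, Cuffdiff 2.2.1.5 and Cuffnorm 2.2.1.2, per the submitters' processing notes, which give no roles. The sources used here do not give the annotation, the strand setting or the handling of reads that match several genes. Per the labels' protocols, 500 ng RNA went into each TruSeq v2 library, with mRNA captured on beads. That kit does not mark strand.

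Counts were scaled to each library's total without Rn45s and Lars2. edgeR 4.0.16 (R 4.3.3) fitted group as the only term, with those totals, no further factor, filterByExpr and a two-sided quasi-likelihood test, called at an adjusted p under 0.05. The test was tried on simulated data with known changes. SE is the log2 fold change over the square root of F. Intervals are exact 95% binomial (Clopper-Pearson) and, like the floor of 3 counts, cover counting error only. Shared 50-base words and lengths came from GENCODE M21 transcripts, matched by symbol for all 10 members, and promoters from RefSeq (GRCm38.p6).

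The members and lists were chosen with earlier results of these data known. Named are all members, up to 3 called genes per related list or else its 2 most abundant (1 of which is not reported here), and the 5 nearest profiles per class. Hspd1, Egr1, Amy2a5, Cela2a, Cel, Spp1, Ins2, Cd74, Itgam, Vim and Col1a1 were named after their values were seen. Alternatives were TMM, RLE and upper quartile factors, other filters, DESeq2 1.42.0, limma-voom 3.58.1, a replicate block, thinning, other totals, other member sets and each library left out.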

Additional observations from a re-analysis of the deposited data

How the results depend on the processing

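Members called higher numbered 0 except for 2 with TMM factors without Rn45s and Lars2 (Hspb1, adjusted p = 0.0440, and Hspa8, adjusted p = 0.0498, edgeR) and 1 with DESeq2 (Hspb1, adjusted p = 0.0365), and members called lower numbered 0 in each alternative. With knockouts thinned to the control depth, 294 genes and 1 member, Hsp90ab1, could be tested. Genes called higher numbered 16, but 5 with TMM factors on all counts, 147 with TMM factors without Rn45s and Lars2, 47 with DESeq2 and 0 with limma-voom, which had 800 genes at an unadjusted p under 0.05. Genes called lower numbered 133, but 27 with TMM factors on all counts, 71 with TMM factors without Rn45s and Lars2, 81 with RLE, 354 with upper quartile factors, 898 without a low-count filter, 388 with a filter of 1 CPM in 2 libraries, 472 with DESeq2 and 21 after thinning. With the replicate block 4 genes were called higher and 5 lower and 0 members. Deviations of same-numbered libraries from their group means had correlations of -0.05 and -0.02 over 301 genes. The deviations of 2 controls mirror each other, so these correlations are not separate and cannot decide whether the numbers are pairs. The numbers were not taken as pairs. Without 1 library each, 0 (without knockout 1) to 19 genes were called higher and 4 (without knockout 1) to 378 (without control 1) lower, with 254 lower without control 2, 48 without knockout 2 and 63 without knockout 3. A lone control is there assumed to vary like the knockouts.

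The scaling moved the median log2 fold change of all genes, from 0.22 to 2.05 with TMM factors on all counts, 1.93 with TMM factors without Rn45s and Lars2 and 1.49 with RLE. The sign turned for Hspa1a to 1.5, 1.54 and 1.02 under these, to 0.34 with limma-voom and 1.08 with the replicate block, and lay between -1.06 and 9.89 with 1 library left out. For Hsph1 it turned to 1.31, 1.37 and 0.90 under these scalings and 0.54 with the replicate block, and lay between -0.90 and 1.29 with 1 library left out. For Hsp90ab1 it turned to -0.12 with upper quartile factors and -0.50 with limma-voom, and lay between -0.68 and 0.66 with 1 library left out. Of the other 7 members, Hspb1 and Hspe1 had no control count, which fixes their sign, and the rest kept a positive sign in every alternative that tested them. Relative to the median of all genes, Hspa1a, Hsph1 and Hsp90ab1 were below it under each scaling (Hspa1a -0.30 and Hsph1 -0.31 as reported, -0.39 and -0.56 with TMM factors without Rn45s and Lars2). For limma-voom and the replicate block the cause was not tested.

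The difference in inducible share was 14.9 to 19.4 percentage points with the other planned member sets and thinning, 10.6 to 23.5 with 1 library left out, and -14.6 without Hsp90ab1. As a mean over members of log2(CPM + 10), inducible minus constitutive, it was 0.36 log2 units, and the groups overlapped. By library this contrast was -0.27, 0.03 and -0.35 in knockouts 1, 2 and 3 and -0.99 and -0.12 in controls 1 and 2. On totals that include Rn45s and Lars2, 7 members in place of 4 had every knockout library above both controls, against 52.9% of tested genes in place of 35.6%, and 5 did on totals without the acinar marker list, against 37.3%. Depth limits these values: 7 of the 10 members had at most 3 counts in both controls together.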
